A study of Mus musculus with 6 samples.

Results

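The machinery that takes a T cell from G1 into S phase was described here through 10 genes: the D-type cyclins Ccnd1, Ccnd2 and Ccnd3, their kinases Cdk4 and Cdk6, the inhibitors Cdkn1a, Cdkn1b, Cdkn2c and Cdkn2d, and the retinoblastoma gene Rb1. Members were taken by symbol from the platform's probe annotation, which names 18193 genes by a single symbol, and have 27 probe sets of the 45101 on the array. Each probe set was kept apart, and 26 passed the filter on low signals; the exception was 1 of the 2 probe sets of Cdkn1a. Regulatory T cells (Treg), CD4 T cells defined by the transcription factor Foxp3, were sorted from the mesenteric lymph nodes of young mice (4 to 6 weeks old) and put on 6 one-colour Affymetrix arrays. The first 3 arrays hold induced Treg (iTreg), sorted as CD4+, Foxp3+ and Nrp- from TBmc mice on a Balb/c background with a Foxp3 GFP reporter, after 1 week of oral ovalbumin at 1%. The other 3 hold total Treg, sorted as CD4+ Foxp3+ from wild-type (WT) Foxp3 GFP reporter mice on Balb/c; the labels mention no feeding for them. TBmc mice have monoclonal T and B cells, with a T cell receptor specific for ovalbumin, so the groups differ at once in receptor, feeding and gate, which cannot be told apart. The labels do not say whether arrays came from separate mice or pools, and p-values cover only the array-to-array spread, part of which may be technical.

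In G1, mitogens and antigen receptor signals raise D-type cyclins, which bind Cdk4 or Cdk6 and phosphorylate the retinoblastoma protein. Phosphorylation releases E2F transcription factors, which switch on the genes of DNA synthesis. The INK4 inhibitors (Cdkn2c encodes p18, Cdkn2d encodes p19) bind Cdk4 and Cdk6 themselves, whereas the CIP/KIP inhibitors (Cdkn1a encodes p21, Cdkn1b encodes p27) act on cyclin-kinase complexes, chiefly those of Cdk2. Naive T cells are held out of cycle with high p27, and in T cells IL-2 and receptor signals induce Ccnd2, Ccnd3 and Cdk6.

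The arrays differ in ways that touch the values below. On the iTreg replicate 1 array the strain label lacks both TBmc and the reporter, and WT Treg replicate 1 has the Nrp- cell label despite a title of total Treg. Median signals were 24.3 to 27.4 in iTreg, against 21.1 to 32.3 in WT Treg. The log2 ratio of 3′ to 5′ signal of the Gapdh control, a measure of RNA integrity that rises when transcripts are cut short, was 3.06, 2.48 and 3.38 in iTreg, against 2.28, 2.53 and 2.34 in WT Treg. The same ratio for the Actb control was 0.38, 0.25 and -0.00044 in iTreg, against 0.14, 0.27 and 0.32 in WT Treg, which does not follow the groups. Of 8 T cell and Treg identity genes, 7 lay on every array above that array's own 27 unspiked bacterial controls, whose highest signal was 10.8 to 17.6 in iTreg, against 10.9 to 28.5 in WT Treg. The eighth was Foxp3 itself, with 31.7, 54.6 and 15.6 in iTreg, against 26.2, 45.7 and 9.16 in WT Treg. Of the 7 B cell marker genes 1 (Cd79b) lay above those controls on every array and 3 (Ms4a1, Blnk, Pax5) on none; of the 8 myeloid and dendritic ones 0 did so on every array and 3 (Cd14, Itgax, Flt3) on none. Summed signals of the B cell list were 93.2 to 146 in iTreg, against 81.2 to 148 in WT Treg, and those of the myeloid list 104 to 142 in iTreg, against 65.6 to 113 in WT Treg. Those of the CD8 and NK cell list were 178 to 261 in iTreg, against 157 to 173 in WT Treg, and those of the erythroid and stromal list 450 to 837 in iTreg, against 398 to 452 in WT Treg. Most of each erythroid and stromal sum came from Pecam1, and without it the sums overlapped, at 44.7 to 104 in iTreg, against 56.6 to 76.0 in WT Treg. Of these 2 lists, Cd8a, Cd8b1 and Pecam1 lay above their array's controls on every array, and Ncr1 and Hba-a1 on none. Cd8b1 had 69.6, 132 and 70.1 in iTreg, against 63.3, 33.7 and 34.0 in WT Treg, without overlap (log2 difference 0.82). Cd8a (0.15) and Nkg7 (-0.55) overlapped. Of the myeloid genes, Lyz2 had 44.6, 44.2 and 23.1 in iTreg, against 21.9, 9.01 and 8.79 in WT Treg, without overlap. Its probe set passed the filter on low signals only through iTreg. Itgam (log2 difference 0.40), which also passed only through iTreg, and Fcgr3 (-0.14) overlapped. Lyz2 and Itgam each lay above their array's controls on 3 iTreg arrays and 1 WT Treg array, and Fcgr3 on 2 of each group. The part of other cells in the results was not tested.

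None of the 26 member probe sets tested passed the threshold (limma, Benjamini-Hochberg adjusted p from 0.572 to 0.999 over 27022 probe sets), where 0.0259% of all probe sets did. At an unadjusted p under 0.05, 4 of the 26 were lower in iTreg (15.4%, against 3.77% of all probe sets) and 2 were higher (7.69%, against 2.44%). The count of 6 was 1 without iTreg replicate 3 or without WT Treg replicate 3, 2 without iTreg replicate 1 and 3 without WT Treg replicate 2. Of all 27022 probe sets, 1678 were at that p with all 6 arrays. Without those arrays, in the same order, 1398, 1270, 1592 and 1330 were. The 4 lower ones belong to Cdk6 and Ccnd2, a pair each, and the 2 higher ones to Rb1. Within each Cdk6 and Ccnd2 pair both probe sets are annotated to the same sequence record, so these are 3 genes and not 6 separate observations. All 3 iTreg arrays lay below all WT Treg arrays in 2 of the 26 (7.69%, against 6.89% of all probe sets) and above them in 2 (7.69%, against 4.54%). Over the 26, 16 differences were negative (61.5%, against 52.1% of all probe sets) and 10 positive. Their median log2 difference was -0.19, beside -0.022 over all probe sets tested. The arrays hold bulk RNA, so fewer cells with a transcript and less of it per cell cannot be told apart.

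**Figure D1:**
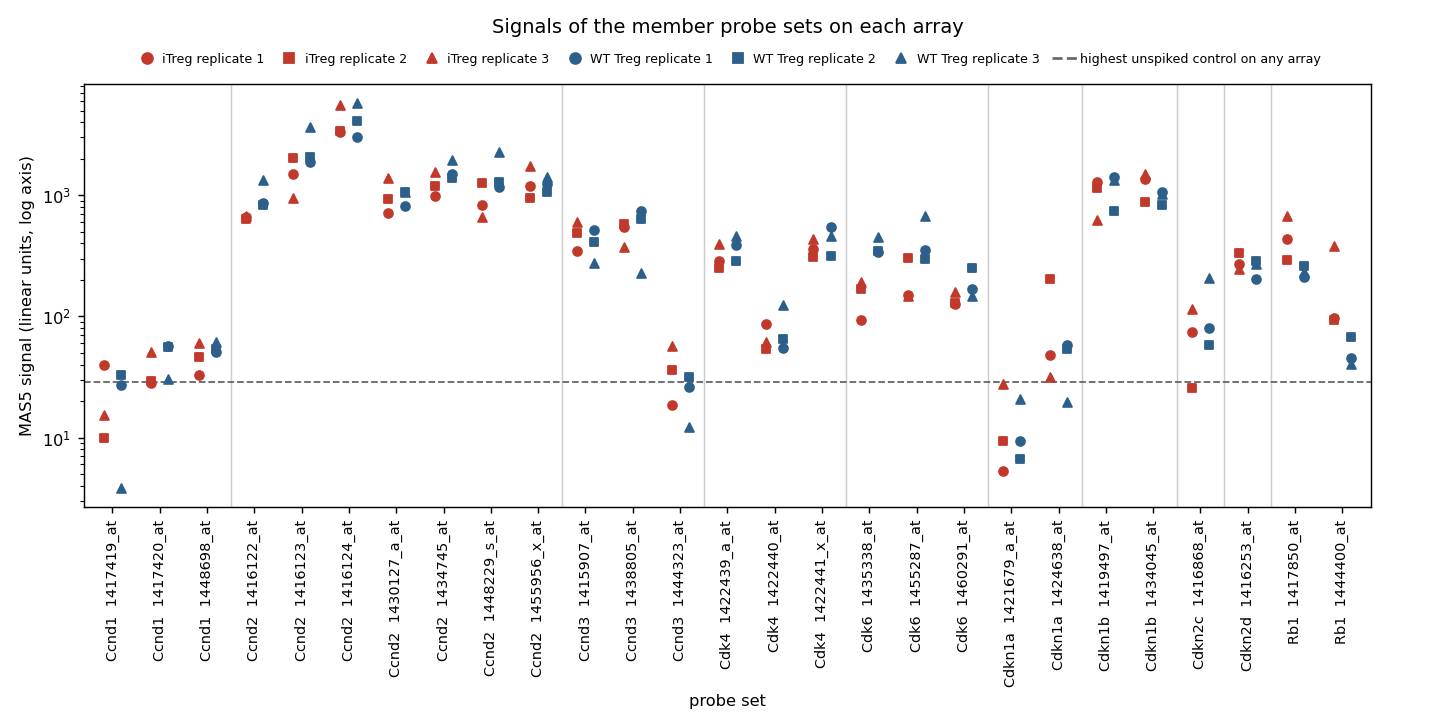
MAS5 signal (log axis) of each of the 27 member probe sets, with the 3 iTreg arrays in red left of the 3 WT Treg arrays in blue; marker shapes give the replicate number and the dashed line the highest unspiked control signal on any array (28.5, on WT Treg replicate 2). The groups separate in Cdk6 1435338_at, in Ccnd2 1416122_at and in both Rb1 probe sets.

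**Figure D2:**
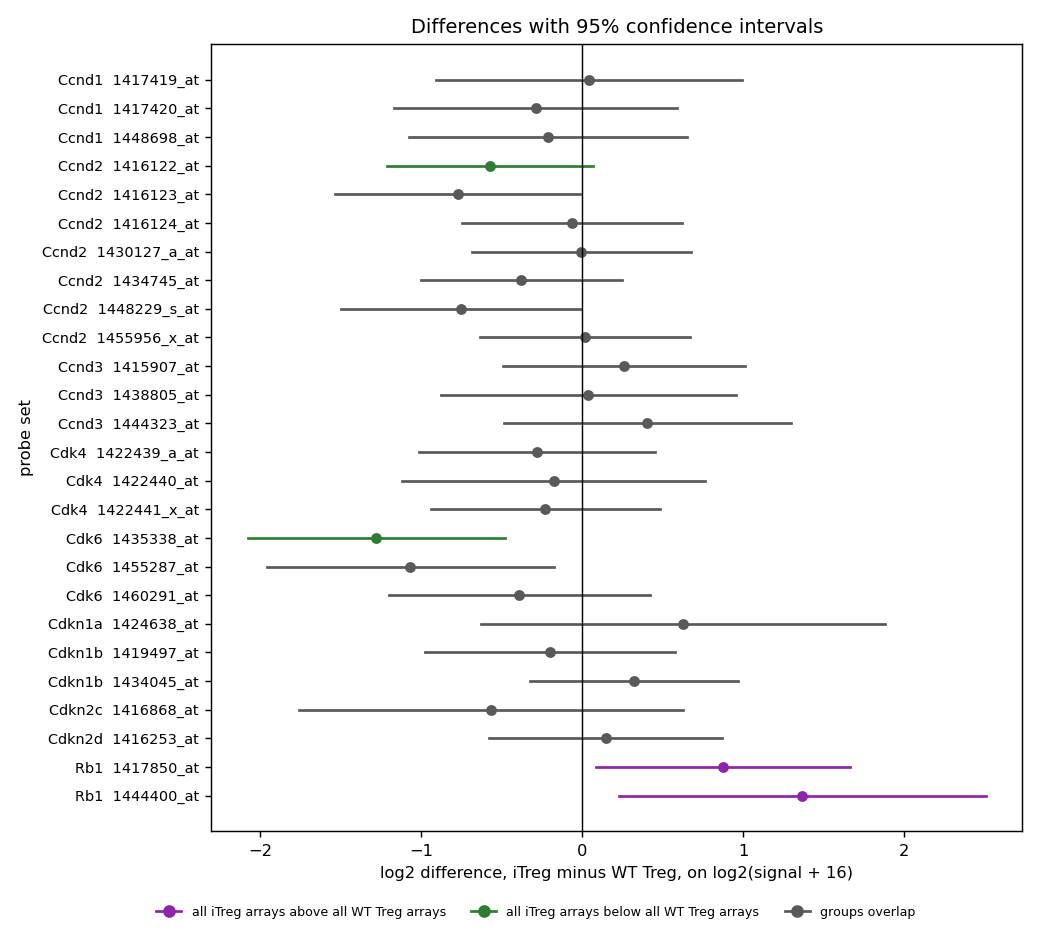
Log2 difference (iTreg minus WT Treg) of the 26 member probe sets tested, with limma's 95% confidence interval. 6 intervals leave out 0, those of 2 Cdk6, 2 Ccnd2 and 2 Rb1 probe sets, the Ccnd2 ones by less than 0.02; none of the 26 passed after adjustment.

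Among the D-type cyclins, Ccnd2, the cyclin that IL-2 and receptor signals induce in T cells, had 7 probe sets, all far above the unspiked controls on every array. Their log2 differences ran from -0.77 to 0.017, with 6 negative and 1 positive, and under scaling to equal array medians 2 of the negative ones (1416124_at and 1430127_a_at) became positive. Probe set 1416122_at had signals of 660, 635 and 678 in iTreg, against 870.3, 827 and 1331 in WT Treg. It was the Ccnd2 probe set whose groups did not overlap, with a log2 difference of -0.57 (SE 0.29, 95% confidence interval -1.21 to 0.065, limma adjusted p = 0.842). Probe set 1416123_at had 1491, 2032 and 941 in iTreg, against 1892, 2080.5 and 3677 in WT Treg. Here iTreg replicate 2 lay above WT Treg replicate 1, and the difference was -0.77 (SE 0.35, interval -1.54 to -0.012, limma adjusted p = 0.795). Probe set 1448229_s_at had 834, 1269 and 657 in iTreg, against 1166, 1293 and 2259 in WT Treg, with a difference of -0.75 (SE 0.34, limma adjusted p = 0.795).

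The 7 Ccnd2 probe sets did not follow each other across arrays. The mean-centred log2 values of 1416123_at and 1448229_s_at were alike, with a root mean square difference of 0.092 over the 6 arrays. Between 1416123_at and 1455956_x_at that difference was 0.73, the widest of the gene. On 1416123_at and 1448229_s_at iTreg replicate 3 was the lowest array of all 6. On 1416124_at (3314, 3402 and 5597 in iTreg, against 3045, 4104 and 5773 in WT Treg) it was the highest iTreg array and above 2 of the 3 WT Treg arrays. It was also the highest iTreg array on 1434745_at (988, 1183 and 1545 in iTreg, against 1485, 1374 and 1956 in WT Treg). On 1430127_a_at (710.3, 925 and 1393 in iTreg, against 821, 1055 and 1069 in WT Treg) and 1455956_x_at (1193, 944 and 1734 in iTreg, against 1247, 1068 and 1414 in WT Treg), iTreg replicate 3 lay above every WT Treg array. The log2 differences of these 4 probe sets were -0.064, -0.38, -0.0046 and 0.017. The iTreg replicate 3 array also had the highest Gapdh 3′ to 5′ ratio, 3.38, but the lowest Actb ratio, -0.00044. The part of these ratios in the split between probe sets was not tested. Without both replicate 3 arrays the differences of 1416123_at and 1448229_s_at were -0.19 and -0.25, and that of 1416122_at was -0.38. Without both arrays with label doubts they were -0.99, -0.89 and -0.66.

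**Figure D3:**
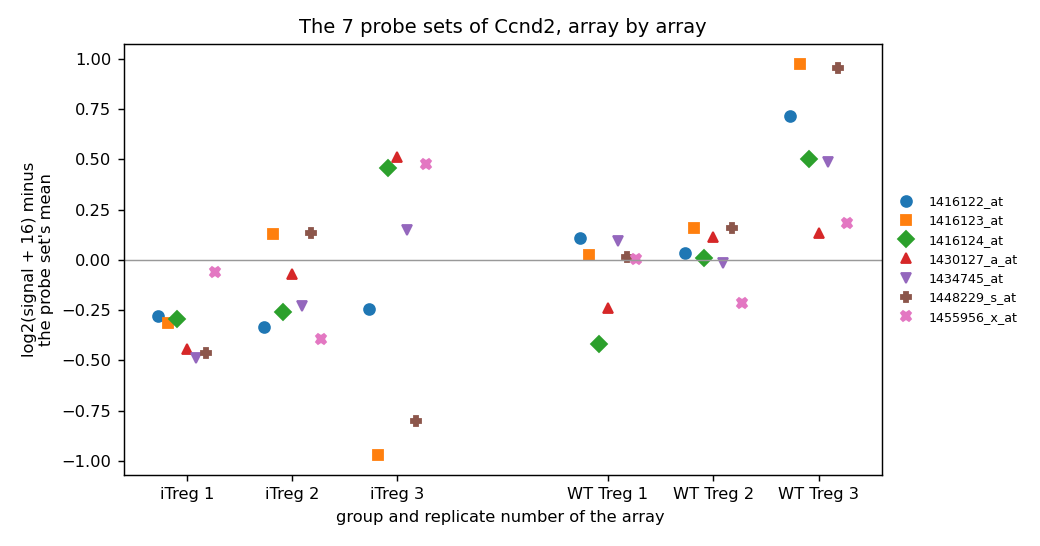
Log2(signal + 16) of the 7 Ccnd2 probe sets on each array, minus each probe set's own mean over the 6 arrays; iTreg arrays are on the left and WT Treg arrays on the right. On the iTreg replicate 3 array the probe sets part, with 1416123_at and 1448229_s_at lowest and 1416124_at, 1430127_a_at and 1455956_x_at highest.

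Ccnd3, the D-type cyclin that developing thymocytes depend on, showed no separation of the groups. Probe set 1415907_at had 348, 488 and 597 in iTreg, against 512, 410.5 and 274 in WT Treg, differing on the log2 scale by 0.26 (SE 0.35, interval -0.49 to 1.01). This was 0.024 without WT Treg replicate 3, 0.087 without iTreg replicate 3 and 0.010 with array weights. Probe set 1438805_at had 546, 584 and 374 in iTreg, against 746, 637 and 229 in WT Treg, a difference of 0.037 that was -0.0075 after quantile normalization. The third, 1444323_at, was near the unspiked controls, at 18.5 to 57.5 in iTreg, against 12.3 to 31.9 in WT Treg. The 2 higher probe sets parted on the iTreg replicate 3 array: on 1415907_at iTreg replicate 3 was the highest iTreg array, and on 1438805_at it was the lowest. WT Treg replicate 3 was the lowest WT Treg array on both.

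Ccnd1, the D-type cyclin typical of epithelial cells and fibroblasts and little used by lymphocytes, stayed near background. On 1448698_at it had 32.7, 46.6 and 60.7 in iTreg, against 51.2, 54.1 and 61.4 in WT Treg. This probe set and 1417420_at were above their array's unspiked controls on all 6 arrays, and 1417419_at was on 4. The log2 differences of the 3 were -0.21, -0.29 and 0.042, with overlapping groups. At this signal the size of a difference depends on the pseudocount: that of 1448698_at was -0.29 with a pseudocount of 1 and -0.12 with 64.

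Of the kinases, Cdk6 had the smallest p of all members. Its probe set 1435338_at had 93.8, 167 and 194 in iTreg, against 342, 345 and 449 in WT Treg. Every iTreg array lay below every WT Treg array, and the gap between the nearest arrays, 194 and 342, was on the linear signal scale wider than the range within either group. On the log2 scale used for the test that gap was narrower than the range within iTreg. Mean-centred log2 values were -1.20, -0.46 and -0.26 in iTreg, against 0.51, 0.52 and 0.89 in WT Treg. The mean signals were 152 ± 51.9 in iTreg, against 379 ± 60.9 in WT Treg (SD, n = 3 each). The log2 difference was -1.28 (SE 0.37, interval -2.07 to -0.48), with an unadjusted p of 0.00432 from limma's test across all probe sets, rank 204 of 27022, and a limma adjusted p of 0.572. Leaving out single arrays gave -1.47 to -1.0, and leaving out both arrays with label doubts gave -1.06. The adjusted p stayed above the threshold in every alternative tried, the lowest being 0.312 with array weights.

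The other Cdk6 probe sets pointed the same way with smaller differences. Probe set 1455287_at, annotated to the same record as 1435338_at, had 150, 305 and 149 in iTreg, against 354, 298 and 678 in WT Treg. Here iTreg replicate 2 lay just above WT Treg replicate 2. Its difference was -1.07 (SE 0.41, interval -1.96 to -0.18, limma adjusted p = 0.775), -0.73 without WT Treg replicate 3 and -0.56 without both replicate 3 arrays. Probe set 1460291_at, annotated to another record, had 126, 129 and 158 in iTreg, against 167, 252 and 148 in WT Treg. WT Treg replicate 3 lay between the iTreg arrays, and the difference was -0.39 (SE 0.37, interval -1.20 to 0.42). It was -0.18 without WT Treg replicate 2. All 3 Cdk6 differences were negative in each alternative in which they were tested. Part of this was fixed in advance, since changing only the filter, the variance estimate or the block leaves a difference as it is. On 1435338_at the groups do not overlap, so leaving out arrays could not turn the sign.

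Cdk4, the other kinase of D-type cyclins, showed smaller differences on its 3 probe sets, which share 1 record. Probe set 1422441_x_at had 362, 310.2 and 432 in iTreg, against 546, 318 and 457 in WT Treg, and 1422439_a_at had 287, 251 and 394 in iTreg, against 388, 289 and 464.5 in WT Treg. Their log2 differences were -0.23 (interval -0.94 to 0.48) and -0.28 (interval -1.01 to 0.45). Probe set 1422440_at had 87.0, 53.7 and 61.6 in iTreg, against 55.0, 64.5 and 125 in WT Treg, a difference of -0.18 that was positive with array weights (0.051) and without WT Treg replicate 3 (0.12). The groups overlapped on all 3. Whether the Cdk6 and Cdk4 differences differ from each other was not tested.

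Among the inhibitors, Cdkn1b, the p27 gene that holds resting T cells out of cycle, had high signals on both probe sets, and the probe sets disagreed in sign. Probe set 1434045_at had 1353, 875 and 1503 in iTreg, against 1058, 834 and 1022 in WT Treg, differing on the log2 scale by 0.32 (SE 0.30, interval -0.32 to 0.97). Probe set 1419497_at had 1292, 1151 and 625 in iTreg, against 1419, 745 and 1341 in WT Treg, a difference of -0.20 (SE 0.36, interval -0.98 to 0.58). On the first iTreg replicate 3 was the highest of all arrays, and on the second it was the lowest. Without that array the second difference was 0.12.

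Cdkn1a, the p21 gene and a classical p53 target, was low on most arrays. Probe set 1424638_at had 48.0, 205 and 31.7 in iTreg, against 57.9, 53.9 and 19.6 in WT Treg. Only iTreg replicate 2 stood clear of the others. The log2 difference of 0.62 (SE 0.58, interval -0.63 to 1.88) was -0.042 without that array. The other probe set, 1421679_a_at, exceeded its array's unspiked controls only on the replicate 3 arrays (5.26, 9.30 and 27.8 in iTreg, against 9.43, 6.65 and 20.9 in WT Treg) and is the member that was filtered out. With no filter its difference was 0.049.

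The INK4 genes each had 1 probe set. Cdkn2d, which encodes p19, had 268, 331 and 245 in iTreg, against 202.5, 287 and 272 in WT Treg, which is a log2 difference of 0.15 (SE 0.33, interval -0.58 to 0.87). Cdkn2c, which encodes p18 and restrains lymphocyte division in mice, had 74.5, 25.5 and 115 in iTreg, against 80.1, 58.0 and 209 in WT Treg. Its highest array was 4.51 times its lowest within iTreg and 3.61 times within WT Treg. The difference of -0.57 (SE 0.55, interval -1.76 to 0.62) lay within that spread, and it was -0.10 without iTreg replicate 2 and -0.096 without WT Treg replicate 3. The other members of both inhibitor families, Cdkn1c (p57), Cdkn2a and Cdkn2b, reached at most 15.0, 16.8 and 12.0 on any array. Cdkn1c lay above its array's unspiked controls on no array, and Cdkn2a and Cdkn2b each on 1 WT Treg array.

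Rb1, whose protein holds E2F factors in check until D-type cyclin kinases phosphorylate it, was the member with the largest positive differences. Probe set 1417850_at had 432, 292 and 676 in iTreg, against 211, 260.2 and 231 in WT Treg. Probe set 1444400_at, annotated to another record, had 97.7, 93.4 and 381 in iTreg, against 45.7, 67.4 and 40.1 in WT Treg. On both, every iTreg array lay above every WT Treg array, and iTreg replicate 3 was the highest iTreg array. On 1444400_at it was far above the other iTreg arrays. The log2 differences were 0.87 (SE 0.36, interval 0.088 to 1.66, limma adjusted p = 0.775) and 1.37 (SE 0.52, interval 0.23 to 2.50, limma adjusted p = 0.775). Without iTreg replicate 3, the array with the highest Gapdh and the lowest Actb 3′ to 5′ ratio, they were 0.57 and 0.76, with unadjusted limma p of 0.123 and 0.106. Without both arrays with label doubts they were 0.82 and 1.61, and they were positive in every alternative tried. With groups that do not overlap, leaving out arrays could not turn these signs. The part of these control ratios in the Rb1 values was not tested.

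**Figure D4:**
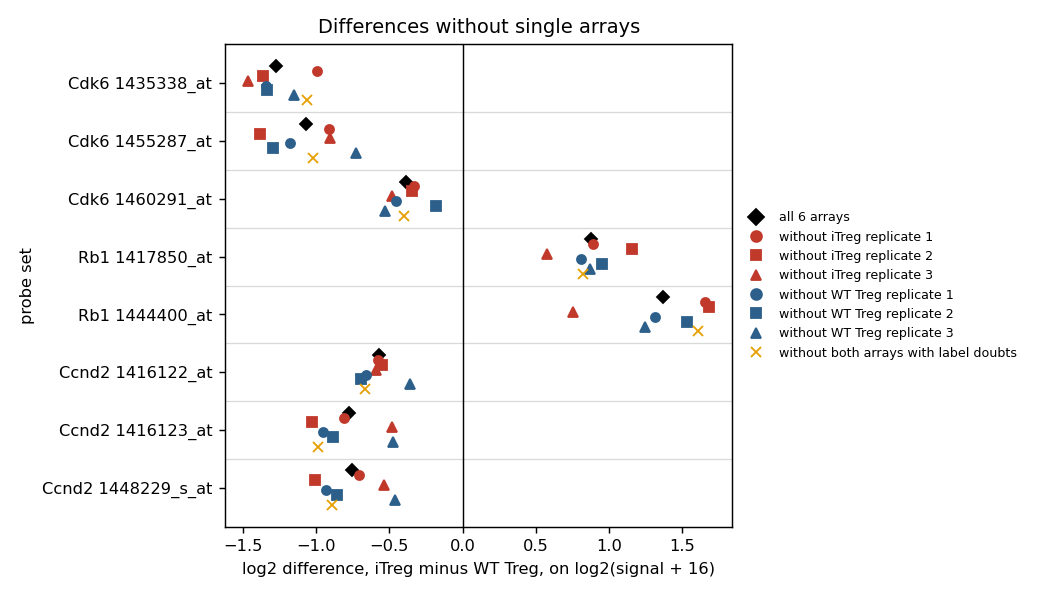
Log2 difference (iTreg minus WT Treg) of 8 probe sets of Cdk6, Rb1 and Ccnd2 with all 6 arrays (black), without each single array (red for iTreg, blue for WT Treg) and without both arrays with label doubts (orange). The Ccnd2 probe sets shown are those with the most negative differences on all 6 arrays, so their kept sign follows in part from that choice. For Cdk6 1435338_at, Ccnd2 1416122_at and both Rb1 probe sets the groups do not overlap, so leaving out arrays cannot turn the sign. Every point keeps its sign, and the closest to 0 is Cdk6 1460291_at without WT Treg replicate 2 (-0.18). Rb1 1444400_at is nearest to 0 without iTreg replicate 3 (0.76) and Ccnd2 1416122_at without WT Treg replicate 3 (-0.36). Of the Ccnd2 probe sets not shown, 1416124_at, 1430127_a_at and 1455956_x_at change sign without single arrays and 1434745_at does not.

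Array profiles most like those of the 2 leading members were found by the root mean square difference of mean-centred log2 values over the 6 arrays. Nearest to Cdk6 1435338_at were the retinoic acid receptor gene Rarg (0.12), the IL-2 receptor alpha chain gene Il2ra (0.14) and Ahnak (0.17), where the median over all other genes' probe sets was 0.81. Il2ra, itself a Treg identity gene, had 1169, 2191 and 2256 in iTreg, against 3537, 4656 and 5860 in WT Treg on the probe set concerned, a log2 difference of -1.35 (SE 0.32, limma adjusted p = 0.370). As with Cdk6, iTreg replicate 1 was the lowest array and WT Treg replicate 3 the highest, a likeness that follows from picking by profile. The other Il2ra probe set had 188, 288 and 643 in iTreg, against 554, 782 and 678 in WT Treg. Its groups overlapped, and its log2 difference was -0.98. Nearest to Rb1 1444400_at were Mccc2 (0.19), an enzyme of leucine breakdown, Ikzf4 (0.22), which encodes the Ikaros family factor Eos, and Qprt (0.23), an enzyme of NAD synthesis, beside a median of 1.03. On the Ikzf4 probe set the signals were 383, 336 and 1228 in iTreg, against 212, 234 and 248 in WT Treg. Here too iTreg replicate 3 was far above the rest, which likewise follows from picking by profile.

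The genes around the members in the G1 to S transition gave no call. Of 27 such genes, 23 were tested with 49 probe sets; 25 differences were negative and 24 positive, with a median of -0.040. At an unadjusted p under 0.05, 3 of the 49 probe sets were lower and 1 was higher, where 3.77% and 2.44% of all probe sets were. Over all probe sets tested, 52.1% of differences were negative. E2f1, the activating factor that Rb1 binds, had 68.1, 70.0 and 124 in iTreg, against 38.9, 20.9 and 10.4 in WT Treg on 1 probe set, a log2 difference of 1.41 (SE 0.44, limma adjusted p = 0.636), and 0.28 on the other. The last 2 of these WT Treg signals lay within their arrays' unspiked controls. Myc, a driver of Ccnd2 and of growth, had 429, 243 and 300.2 in iTreg, against 608, 547 and 958 in WT Treg, a difference of -1.08 (SE 0.34, limma adjusted p = 0.657) on its only probe set. The groups did not overlap for either. The phosphatase gene Cdc25a differed by -1.24 on a probe set that passed the filter on low signals only through WT Treg (20.7, 22.5 and 1.56 in iTreg, against 56.1, 50.2 and 51.9 in WT Treg), with 0.48 and -0.15 on its others. The E2F partner gene Tfdp2 differed by -0.97, with -0.26, -0.040 and 0.39 on its others.

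Genes that E2F factors switch on, and other proliferation genes, also gave no call over 37 probe sets of 20 genes. Their differences were negative in 22 and positive in 15, with a median of -0.065. At an unadjusted p under 0.05, 0 of the 37 were higher and 1 was lower, where 2.44% and 3.77% of all probe sets were. That one was Mcm6, a subunit of the replicative helicase, with 132, 175 and 143 in iTreg, against 341, 269 and 493 in WT Treg (log2 difference -1.18, SE 0.36, limma adjusted p = 0.622), and -0.25 on its other probe set. Pcna, the sliding clamp of DNA polymerase, had 2467, 1679 and 1364.5 in iTreg, against 2429, 1931 and 3477 in WT Treg, a difference of -0.51 with overlapping groups. Ccnb2 (0.68) and Tyms (-0.67, and -0.27 on its other probe set), the other genes with the smallest p, overlapped too. The Tyms probe set passed the filter only through WT Treg and lay within its array's unspiked controls on all 3 iTreg arrays and 1 WT Treg array. The mean log2 level of the list, with 1 probe set per gene, was 7.72, 7.50 and 8.50 in iTreg, against 7.80, 7.73 and 8.18 in WT Treg. The replicate 3 array was the highest of its group in both.

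The p53 target list had 24 probe sets of 13 genes tested, 13 negative and 11 positive, with a median of -0.016. At an unadjusted p under 0.05, 0 were lower and 1 was higher, where 3.77% and 2.44% of all probe sets were. The higher one was the stress-induced Sesn2 (1.14, and -0.17 on its other probe set). That Sesn2 probe set passed the filter only through iTreg, with 24.5, 26.5 and 81.6 in iTreg, against 13.1, 11.1 and 4.12 in WT Treg. Mdm2, which encodes the ubiquitin ligase for p53, differed by 0.69 (0.029 and 0.26 on its other probe sets), Pmaip1 by -0.99 and Btg2 by 0.59 (0.47 on its other), all with overlapping groups. The list of FOXO factors and quiescence genes had 37 probe sets of 13 genes, 13 negative and 24 positive, with a median of 0.086. At an unadjusted p under 0.05, 1 was lower and 1 higher, where 3.77% and 2.44% of all probe sets were. Foxo3, a factor that can raise p27, had 879, 897 and 1428 in iTreg, against 559, 532 and 725 in WT Treg on the higher one (log2 difference 0.78, SE 0.31, limma adjusted p = 0.775), with 0.53 and 0.52 on its other probe sets. Foxp1, which keeps naive T cells quiescent, was the lower one at -1.01, while its other 7 probe sets were positive, from 0.043 to 0.42. Pik3ip1, an inhibitor of PI3 kinase signalling, differed by 0.78 (0.47 on its other probe set) and the glucocorticoid-induced Tsc22d3 by 0.68 (-0.17 and 0.0021 on its others), neither at that p.

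**Figure D5:**
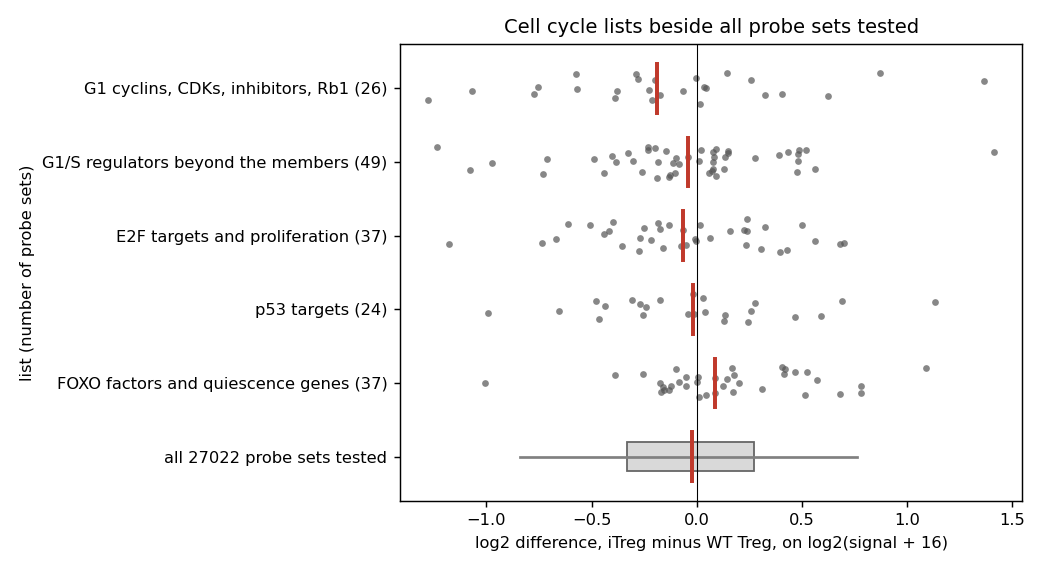
Log2 differences (iTreg minus WT Treg) of the member probe sets and of 4 lists, 1 grey point per probe set with the list's median in red; the bottom row gives all 27022 probe sets tested as the 5th to 95th percentile (line), the quartiles (box) and the median (red). The medians lie between -0.19 (members) and 0.086 (FOXO factors and quiescence genes), beside -0.022 for all.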

How the data were processed

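The authors deposited MAS5 intensity signals on a linear scale, a single value for each probe set, as the submitters' processing notes state; the MAS5 version and detection calls are not given in the sources used here. All values were above 0 and the 2% trimmed mean was 150.0 on each array. Per the labels' protocols, Trizol RNA was biotin-labelled. Groups and replicate numbers came from sample titles. Of 45101 probe sets 64 were controls; symbols came from the platform annotation table, and no probe set with several symbols names a member. Signals were transformed as log2(signal + 16), so differences of low signals are understated. The 27022 probe sets whose mean reached the 40th percentile (4.91) were fitted together with limma 3.58.1 in R 4.3.3 (lmFit, eBayes with an intensity trend), two-sided, Benjamini-Hochberg adjusted at 0.05, as iTreg minus WT Treg. The code was tested on simulated data. Context lists are given as counts. Named are all probe sets of the members and the 4 with the smallest p in each list. Of the marker lists only those that bear on the members or on other cells are named. The 3 profiles nearest to the leading member in each direction are named too. Members and lists were chosen with earlier results of these data known. The alternatives used a pseudocount of 1 or 64, quantiles or medians made equal, no filter or a 60th percentile filter, no trend, robust estimation, array weights, 1 probe set per gene, probe sets with 1 symbol, replicate numbers as a block, every array dropped in turn, both arrays with label doubts left out and, added after seeing the data, both replicate 3 arrays left out. No genome build is named in the file and no coordinates are given. The number of arrays limits the precision.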

Additional observations from a re-analysis of the deposited data

How the results depend on the processing

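No member probe set passed the threshold in any alternative tried, and none of the 4 context lists had a call in any. The count of all probe sets called, 7, was 4 with probe sets of 1 symbol, 3 with 1 probe set per gene (fewer were tested in both), 12 with array weights, 2 with no filter, 2 with a pseudocount of 1, 0 without both arrays with label doubts (1254 at an unadjusted limma p under 0.05), 2 without both replicate 3 arrays and 0 to 11 without single arrays. It was 11 without WT Treg replicate 1, 1 without iTreg replicate 2, 2 without iTreg replicate 3, and 0 without iTreg replicate 1, WT Treg replicate 2 or WT Treg replicate 3 (1592, 1330 and 1270 at that unadjusted p). With the replicate number as a block it was 3. Same-numbered arrays deviated together with correlations of 0.19, 0.037 and 0.12, so the numbers were not taken to pair the samples, although every array correlated best with its own number, a hint from the data and not from the design. The block changed no call of a member. The count of member probe sets at an unadjusted p under 0.05, 6, was 2 with 1 probe set per gene (10 tested), 3 with median scaling, 2 without both arrays with label doubts, 1 without both replicate 3 arrays and 1 to 6 without single arrays, the lowest without iTreg replicate 3 or WT Treg replicate 3. Over all probe sets the count at that limma p was 1678 of 27022, and 842 of 11308 with 1 probe set per gene. Of the 27022 it was 1580 with median scaling and 1254 without both arrays with label doubts. Without both replicate 3 arrays it was 1423, and 1270 to 2232 without single arrays. In each case below the cause was not tested. With array weights the sign turned for Ccnd1 1417419_at (-0.076), Ccnd2 1455956_x_at (-0.022), Ccnd3 1438805_at (-0.17), Cdk4 1422440_at (0.051) and Cdkn1b 1419497_at (0.0105). With median scaling it turned for Ccnd2 1416124_at (0.026) and 1430127_a_at (0.085), and with quantile normalization for Ccnd2 1455956_x_at (-0.014) and Ccnd3 1438805_at (-0.0075). Without both arrays with label doubts it turned for Ccnd1 1417419_at (-0.12) and Ccnd2 1430127_a_at (0.095). Without both replicate 3 arrays it turned for Ccnd1 1417419_at (-0.27), Ccnd2 1455956_x_at (-0.12), Ccnd3 1415907_at (-0.15), 1438805_at (-0.28) and 1444323_at (-0.080), Cdk4 1422440_at (0.16) and Cdkn1b 1419497_at (0.24). Without single arrays the range crossed 0 for Ccnd1 1417419_at (-0.36 to 0.29), Ccnd2 1416124_at (-0.31 to 0.17), 1430127_a_at (-0.26 to 0.22) and 1455956_x_at (-0.22 to 0.22), Ccnd3 1438805_at (-0.47 to 0.35), Cdk4 1422440_at (-0.37 to 0.12), Cdkn1a 1424638_at (-0.042 to 1.06) and Cdkn1b 1419497_at (-0.49 to 0.12). Cdk6, Rb1, Cdkn2c and Cdkn2d kept their sign on every probe set in each alternative, with Cdkn2d at 0.00021 without WT Treg replicate 1. Some alternatives leave every difference as it is, and where groups do not overlap leaving out arrays cannot turn a sign.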
